A study of Homo sapiens with 8 samples.

Results

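HCT116 and NCI-H716 are both lines of human colorectal cancer cells, and the comparison described here sets their control libraries side by side, without the treated ones. It used 4 of the 8 samples of the series, 2 HCT116 control and 2 NCI-H716 control libraries, chosen by their labels. Both lines carried the same label, Control, and no treatment is stated for these samples in the labels. HCT116 cells were grown in DMEM with serum and L-glutamine and NCI-H716 cells in another medium with serum, so line and medium cannot be told apart. Each library was made from cells of 1 line by SMART-Seq2. The paper calls the replicates biological duplicates. The labels do not say whether they came from separate cultures, and the p-values measure the spread between these libraries. The HCT116 table lists genes of chromosomes 1 to 8 and the first part of chromosome 9, and 28015 of the 63241 genes of the NCI-H716 tables could be joined to it. All values of HCT116 and all comparisons concern these joined genes.

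HCT116 is an adherent epithelial line that is widely used as a model of colon carcinoma with defective mismatch repair. NCI-H716 grows mostly in suspension and is known for endocrine differentiation: it stores and releases glucagon-like peptide 1, the product that intestinal L cells cut from proglucagon. Enteroendocrine cells of this kind pack peptide hormones into dense-core granules, where prohormone convertases process them, while the absorptive and secretory cells of the gut lining carry brush border enzymes and mucus proteins. Epithelial cells are held together by junction proteins and held to their matrix by integrins.

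The largest differences were between high counts in either line and few or no counts in the other. Few or no counts in HCT116 need not mean a silent gene, as given below. From the 2 ends, 4 genes are shown by the 250 bases before their start in RefSeq (GRCh38.p14), 5′ to 3′ on the strand of the gene. Capitals mark TATAAA, the core of a TATA box, searched on both strands. *CAV1* lies at chr7:116524759-116525008 (plus strand), *EREG* at chr4:74364895-74365144 (plus strand), *GCG* at chr2:162152248-162152497 (minus strand) and *GUCA2B* at chr1:42153160-42153409 (plus strand), where the coordinates are those of the printed bases.
CAV1: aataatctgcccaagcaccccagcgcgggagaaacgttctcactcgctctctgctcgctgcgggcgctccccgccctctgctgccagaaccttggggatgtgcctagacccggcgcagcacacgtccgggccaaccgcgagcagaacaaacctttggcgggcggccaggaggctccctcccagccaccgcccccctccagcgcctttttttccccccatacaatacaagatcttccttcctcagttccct
EREG: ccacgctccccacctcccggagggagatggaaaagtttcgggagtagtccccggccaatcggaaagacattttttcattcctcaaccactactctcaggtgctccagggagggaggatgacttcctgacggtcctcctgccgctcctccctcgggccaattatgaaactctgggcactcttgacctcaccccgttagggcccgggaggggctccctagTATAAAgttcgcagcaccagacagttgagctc
GCG: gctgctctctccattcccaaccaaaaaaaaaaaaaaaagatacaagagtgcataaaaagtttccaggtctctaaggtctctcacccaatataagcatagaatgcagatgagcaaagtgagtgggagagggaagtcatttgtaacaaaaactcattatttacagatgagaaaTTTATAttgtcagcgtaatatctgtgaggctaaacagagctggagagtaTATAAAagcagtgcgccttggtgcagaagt
GUCA2B: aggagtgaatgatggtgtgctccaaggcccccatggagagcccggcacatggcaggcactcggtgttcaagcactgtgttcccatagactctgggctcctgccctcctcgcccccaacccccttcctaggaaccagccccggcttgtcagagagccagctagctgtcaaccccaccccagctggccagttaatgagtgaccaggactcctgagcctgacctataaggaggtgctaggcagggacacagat
The 2 genes that were high in HCT116, *CAV1* and *EREG*, come first, and the 2 that were high in NCI-H716, *GCG* and *GUCA2B*, follow. The letters TATAAA occurred once in the *EREG* bases, at 2 places in those of *GCG*, and not in the other two. Over 27305 RefSeq promoters of this length, 11.1% held them, and 6.6% held TGANTCA, the letters of an AP-1 site, which occurred in none of the 4 printed stretches. Among genes that were tested and free of overlap and copies (defined below), 6.61% of 3375 promoters held TATAAA, against 7.81% of 448 promoters of genes called higher in HCT116 and 11% of 616 promoters of genes called higher in NCI-H716. The median GC content was 64.8%, 64.6% and 62% in the same order. These shares were not tested.

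Over the joined genes the HCT116 control libraries held 13339249 and 13183764 counts and the NCI-H716 control libraries 5692125 and 4458955. Levels are given as CPM, counts scaled to the library's total over the tested genes after TMM normalization, and 3 counts in a library corresponded to 0.236 to 0.623 CPM. Replicates lay closer together than the lines, with Pearson correlations of log2(CPM + 1) over the joined genes of 0.993 in HCT116 and 0.991 in NCI-H716, against 0.856 to 0.858 between the lines. Spearman correlations over the same genes were lower, 0.833 in HCT116 and 0.867 in NCI-H716, against 0.698 to 0.717 between the lines. In HCT116, 82.5% and 78.2% of the counts from 1 to 10 were even, against 40.9% and 40.7% in NCI-H716. Whether both ends of a read pair were counted in HCT116 was not tested.

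A gene was called different at an adjusted p under 0.05 in edgeR's quasi-likelihood test together with a log2 difference over 2, a 4-fold change. Of 7343 tested genes, 1114 (15.2%) were called higher in HCT116 and 1945 (26.5%) higher in NCI-H716. In all 3059 of them the libraries of the lines did not overlap. With 2 libraries per line the call rule leaves little room for overlap, so this adds no separate support. When the NCI-H716 counts were rescaled to the gene lengths of the HCT116 table, the split became 1459 and 1546 over 6652 tested genes. Only 2254 of the 3059 genes were called there too. Scaling by a list of housekeeping genes lowered the log2 differences by a median of 0.61 and scaling by library size alone by 0.16, so that smaller differences change sign with the scaling.

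The calls were not spread evenly over kinds of genes, and these values stand beside every result below. Of 173 tested protein-coding genes that shared at least 50% of their exon bases with another gene, 74.6% were called higher in NCI-H716 and 1.16% higher in HCT116. Of 166 genes with at least 50% of their 50-base exon windows also on alternate contigs of hg38, among them *HLA-B* and *RPS18*, 91.6% were called higher in NCI-H716. Processed pseudogenes went the other way, with 59.8% of 410 called higher in HCT116. The lines were quantified with different tools, so the part that counting had in these shares cannot be told apart from the cells. Counts of list members are therefore also given over 4201 tested protein-coding genes without overlap or copies, which shared under 20% of exon bases and had under 5% of windows on alternate contigs or at a second place in the genome. Of these, 13.8% were called higher in HCT116 and 18.1% higher in NCI-H716, with a median log2 difference (HCT116 minus NCI-H716) of 0.06. Genes outside this set are called uncertain below. A gene with counts in 1 line alone could be tested, while genes low in both lines were not. Shares and medians of the lists below are therefore those of the tested members and not of whole lists.

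**Figure D1:**
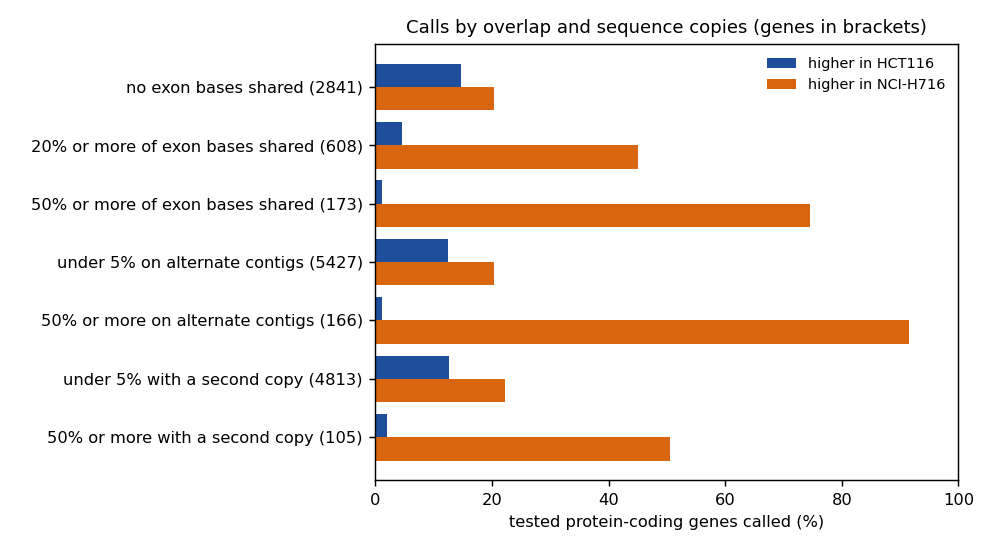
Share of tested protein-coding genes called higher in HCT116 (blue) or in NCI-H716 (orange), in percent, by the share of exon bases that overlap another gene, of exon windows found on alternate contigs and of windows with a second copy. The orange bars reach 74.6% for genes with at least 50% of exon bases shared and 91.6% for genes with at least 50% of windows on alternate contigs, against 20.3% for genes that share no exon bases.

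Some genes that every cell uses were also listed near 0 in HCT116 without such overlap or copies. *PAK1IP1*, a ribosome biogenesis factor, was at 0 CPM in both HCT116 libraries and at 474 and 505 CPM in NCI-H716. *HNRNPR*, an RNA-binding protein of the splicing machinery that was singled out after its values were seen, was at 0.157 and 0.0815 CPM against 529 and 576 CPM. A value near 0 in HCT116 is thus a value of the table and need not show that the gene is silent. The reason for these values was not tested.

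*CAV1*, which encodes caveolin-1, the coat protein of caveolae, stood at the head of the genes higher in HCT116. It was at 4591 and 4721 CPM in the HCT116 libraries and had no count in either NCI-H716 library, which makes it at least 8227-fold higher against a floor of 3 counts per library. *CAV2*, its partner in the caveolar coat, was at 1885 and 1911 CPM in HCT116 and 3.22 and 1.87 CPM in NCI-H716, a log2 difference of 9.50 ± 0.22 (SE). *ANXA3*, a calcium-dependent membrane-binding annexin, was at 2907 and 3048 CPM in HCT116 and at 0 in NCI-H716 (at least 5261-fold). The other members of the 10 largest differences in this direction were *CA2*, *EREG*, *ADGRF1*, *AREG*, *AKAP12*, *ESRP1*, *ARHGAP29* and *RAB25*, with means of 86.1 to 1589 CPM in HCT116 and at most 2 counts in an NCI-H716 library.

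Among the 10 largest differences in the other direction were 5 that belong to the groups described below or to the collagens, *GCG*, *AGR2*, *GUCA2B*, *STMN2* and *COL14A1*. *ALB*, the gene of serum albumin, was at 694 and 820 CPM in NCI-H716 and at 0 in HCT116 (at least 3154-fold). The rest of the 10 were *PAK1IP1*, given above, and *SPRR2F*, *TOMM6* and *AK6*, which are uncertain: *TOMM6*, for example, shared 100% of its exon bases with another gene, and was at 756 and 752 CPM against 0.

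Genes of the epithelial junction list, which also counts *ESRP1*, *RAB25* and *MAL2*, were called in both directions. Of 25 tested members of 30 in the joined table, 8 were higher in HCT116 and 4 in NCI-H716 (8 and 3 of 22 without overlap or copies). Over all tested genes the shares were 15.2% and 26.5% (13.8% and 18.1% without overlap or copies). The HCT116 counts of this list lay above these shares and the NCI-H716 counts below them. *EPCAM*, the surface adhesion molecule of epithelial cells, was at 1546 and 1760 CPM in HCT116 and at 106 and 108 CPM in NCI-H716, so it was present in both lines, with a log2 difference of 3.95 ± 0.14 (edgeR adjusted p = 4.66e-10). *ESRP1*, a splicing regulator that sets epithelial isoforms, was at 109 and 105 CPM in HCT116 and at 0 in both NCI-H716 libraries (at least 189-fold). *RAB25*, a small GTPase of recycling vesicles in epithelial cells, was at 74.3 and 97.9 CPM against 0 (at least 152-fold). *MAL2*, a protein of apical transport, was at 488 and 514 CPM against 73 and 90.8 CPM, a call that was lost with housekeeping scaling. *CTNNB1*, β-catenin, was at 639 and 622 CPM against 132 and 161 CPM, a log2 difference of 2.11 that was under the threshold in 9 of the 22 alternatives, down to 1.49 with housekeeping scaling. In the other direction, *CDH17*, the cadherin of intestinal epithelium, was at 329 and 298 CPM in NCI-H716 and at 0 and 0.326 CPM in HCT116, with a log2 difference of -10.82 ± 0.39. *CDHR2*, which links microvilli tips, was at 24.4 and 22.2 CPM against 0.942 and 0.326 CPM. Not called were *DSP* (desmoplakin), *CTNNA1* (α-catenin) and *CLDN12*, whose levels lay within a factor of 4 between the lines.

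Matrix contacts were split by subunit. Of 35 tested members, 10 were higher in HCT116 and 9 in NCI-H716 (10 and 8 of 33 without overlap or copies). The NCI-H716 count of 9 lay near the share over all tested genes, 26.5%. *ITGA6*, the α6 integrin chain of laminin receptors, was at 165 and 117 CPM in HCT116 and 6.61 and 6.44 CPM in NCI-H716. *ITGA1*, the α1 chain of a collagen receptor, showed the opposite order, with 0.236 and 0.0815 CPM in HCT116 and 192 and 206 CPM in NCI-H716. *LAMB1*, a laminin chain, was at 22.3 and 20.5 CPM in HCT116 against 291 and 330 CPM in NCI-H716. *COL12A1*, a fibril-associated collagen, was at 77.1 and 69 CPM in HCT116 and 0.339 and 0 CPM in NCI-H716.

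Neural adhesion and guidance genes stood in the NCI-H716 direction. Of 24 tested members, all without overlap or copies, 18 were higher in NCI-H716 and 2 in HCT116, and the median log2 difference was -4.0. *CADM2*, a synaptic cell adhesion molecule, was at 422 and 452 CPM in NCI-H716 and had 0 and 2 counts in HCT116. The ratio was 5443 with an exact 95% interval of 1506 to 44961 that covers counting error only. This kind of interval takes every count as independent. Since most low HCT116 counts were even, it may be too narrow. *NRCAM* was at 32.7 and 50.3 CPM against 0 and 0.571 CPM, *CDH6* at 40.3 and 38.9 CPM against 0 and 0.163 CPM, and *NFASC* at 30.5 and 27.8 CPM against 0.393 and 1.88 CPM. *SEMA3A*, a secreted guidance cue, was lower in both HCT116 libraries (17.1 and 20.1 CPM) than in NCI-H716 (107 and 115 CPM), and its call was lost when gene lengths were taken into account (log2 difference of -1.08). Against this direction, *PCDH7*, a protocadherin, was at 168 and 184 CPM in HCT116 and 0.678 and 0 CPM in NCI-H716. *ALCAM* was present in both lines, at 186 and 131 CPM in HCT116 and 110 and 109 CPM in NCI-H716, and was not called.

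**Figure D2:**
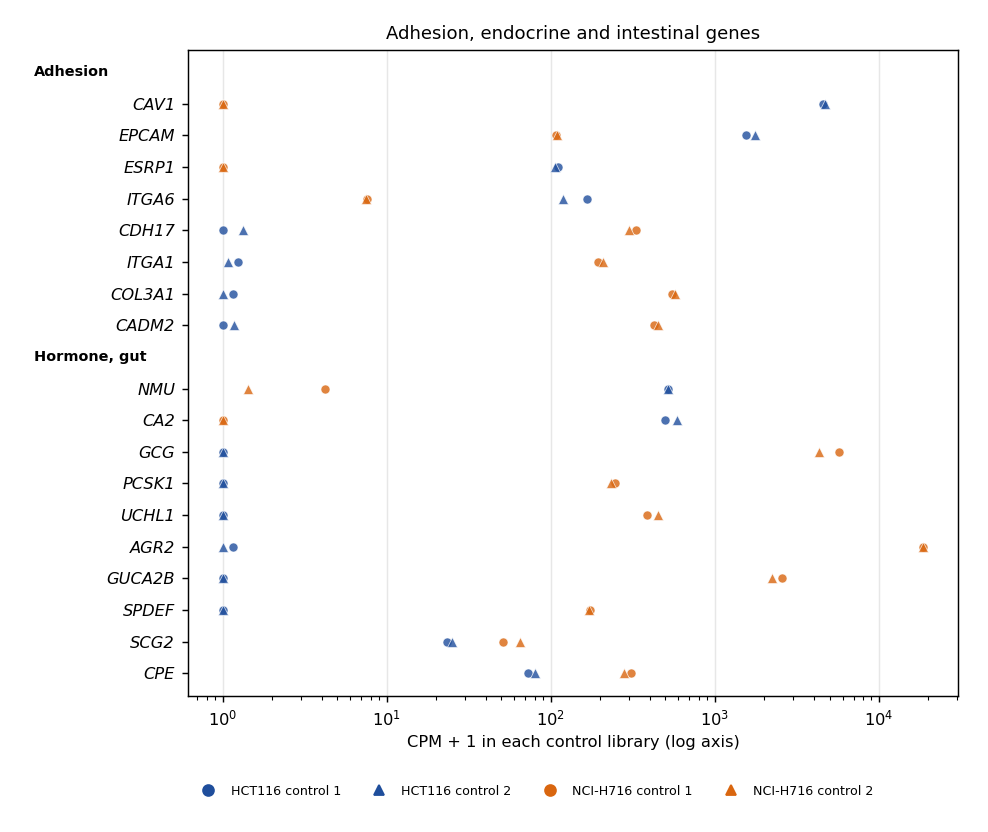
CPM + 1 on a log axis of adhesion, hormone and intestinal genes in each control library, HCT116 in blue and NCI-H716 in orange, with circles for replicate 1 and triangles for replicate 2. *CAV1*, *ESRP1* and *CA2* have no count in NCI-H716, *GCG*, *PCSK1*, *UCHL1*, *GUCA2B* and *SPDEF* none in HCT116, and *SCG2* and *CPE* are present in both lines.

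Of 53 genes in the joined table from the list of neuroendocrine hormones and granules, 28 were tested. Of these, 19 were higher in NCI-H716 and 3 in HCT116 (18 and 2 of 26 without overlap or copies). Their median log2 difference was -4.84. The list is broader than granules and also counts *STMN2*, *UCHL1* and *DDC*. *GCG*, the gene of proglucagon, was at 5687 and 4318 CPM in NCI-H716 and had no count in HCT116 (at least 20836-fold). *PCSK1*, the convertase that cuts proglucagon to glucagon-like peptide 1, was at 244 and 232 CPM in NCI-H716 and at 0 in HCT116 (at least 991-fold). *STMN2*, a microtubule regulator of neurons, was at 638 and 626 CPM against 0, *UCHL1*, a ubiquitin hydrolase of neurons and endocrine cells, at 385 and 451 CPM against 0, and *RAB3C*, a GTPase of regulated secretion, at 240 and 238 CPM against 0 and 0.163 CPM. *DDC*, the decarboxylase that makes serotonin and dopamine, was at 392 and 316 CPM against 0.314 and 1.55 CPM, and *HEPACAM2* at 770 and 504 CPM against 0.628 and 0 CPM.

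Part of the granule machinery was found in both lines. *SCG2*, a granin, was at 22.3 and 24 CPM in HCT116 and 49.8 and 64.2 CPM in NCI-H716, and *CPE*, the carboxypeptidase that trims hormone ends, at 71.6 and 79 CPM against 306 and 280 CPM, a log2 difference of -1.96 ± 0.16. *PAM*, the enzyme that amidates peptide ends, was at 88.5 and 78.7 CPM against 71 and 63.4 CPM (log2 difference of 0.31, edgeR adjusted p = 0.144). A hormone gene without overlap was higher in HCT116. *NMU*, neuromedin U, was at 520 and 516 CPM in HCT116 and 3.22 and 0.416 CPM in NCI-H716, a log2 difference of 8.05 ± 0.36. *CCK* (cholecystokinin, uncertain) was low, with 3.53 and 3.42 CPM in HCT116 and no count in NCI-H716.

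Of 33 transcription factors of endocrine and neural cells in the joined table, 18 were tested. Of these, 12 were higher in NCI-H716 and 1 in HCT116 (11 and 1 of 17 without overlap or copies). *ISL1* was at 138 and 145 CPM in NCI-H716 and 2.43 and 4.49 CPM in HCT116, *ETV1* at 283 and 344 CPM against 12.3 and 7.42 CPM, and *HES6* at 183 and 122 CPM against 22.6 and 23 CPM. With rescaled lengths *HES6* was no longer called. *PROX1* (30.3 and 42.6 CPM), *ST18* (26.6 and 30.8 CPM) and *EBF1* (28.8 and 38.7 CPM) had at most 2 counts in an HCT116 library. *NEUROD1*, a factor of late endocrine precursors, was near 0 in all 4 libraries and was not tested. *REST*, the repressor of neuronal genes, was at 137 and 114 CPM in HCT116 and 62.9 and 70.9 CPM in NCI-H716, and *SOX4* at 631 and 484 CPM against 569 and 565 CPM; neither was called.

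Genes of gut differentiation went the same way, with 30 of 55 members in the joined table tested. Of these, 20 were higher in NCI-H716 and 4 in HCT116 (18 and 4 of 28 without overlap or copies). *AGR2*, a disulfide isomerase needed to fold mucins, reached 18553 and 18650 CPM in NCI-H716 and had 2 and 0 counts in HCT116, a ratio of 232466 with a counting interval of 64352 to 1919559. *AGR3*, its neighbour and relative, was at 379 and 350 CPM against 0. *GUCA2B*, uroguanylin, was at 2579 and 2244 CPM against 0 (at least 10046-fold). *MUC13*, a membrane mucin, was at 238 and 264 CPM, *SPDEF*, a goblet cell transcription factor, at 173 and 169 CPM, and *SI*, the sucrase-isomaltase of the brush border, at 147 and 172 CPM in NCI-H716, each with no count in HCT116. The members higher in HCT116 were *CA2* (carbonic anhydrase 2, 493 and 583 CPM against 0), *PROM1* (35.3 and 31.9 CPM against 0), *FABP6* (30.9 and 32.8 CPM against 7.12 and 6.86 CPM, not called with housekeeping scaling) and *MUC3A*, which was at 1.88 and 2.36 CPM against 0.678 and 0.208 CPM and lost its call under DESeq2.

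**Figure D3:**
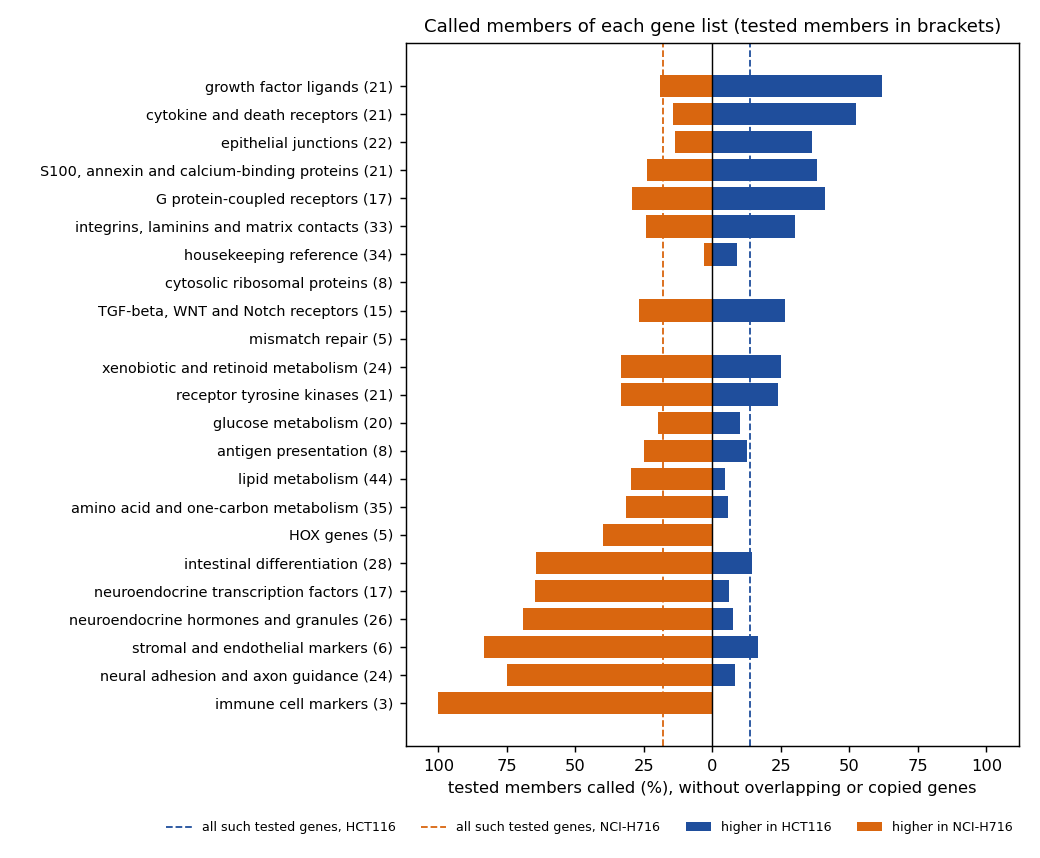
Share of the tested members of each gene list, without overlapping or copied genes, called higher in HCT116 (blue, to the right) or in NCI-H716 (orange, to the left), in percent, with the number of tested members in brackets. Dashed lines mark the shares over all 4201 such genes, 13.8% and 18.1%. The bars of neural adhesion and of neuroendocrine hormones and granules reach 18 of 24 and 18 of 26 members to the left. That of growth factor ligands reaches 13 of 21 to the right.

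Growth factor ligands had the highest median of all lists, a log2 difference of 2.40, with 14 of 24 tested members higher in HCT116 and 6 in NCI-H716 (13 and 4 of 21 without overlap or copies). The ligands of the EGF receptor were among them. *EREG*, epiregulin, was at 534 and 425 CPM in HCT116 and at 0 in NCI-H716 (at least 848-fold), and *AREG*, amphiregulin, at 211 and 206 CPM against 0 (at least 369-fold). *TGFA* was at 33.1 and 37.3 CPM against 0 (at least 62.2-fold). *PDGFA*, a platelet-derived growth factor chain, was at 48.7 and 50.7 CPM against 1.69 and 1.87 CPM, and *FGF2*, basic fibroblast growth factor, at 15.9 and 8.4 CPM against 0. NCI-H716 was higher in *EFNA5*, an ephrin (102 and 105 CPM against 7.22 and 2.85 CPM), *KLB*, the co-receptor of endocrine FGFs (46.9 and 51.7 CPM against 1.33 and 0.652 CPM), and *ANGPT1* (16.1 and 12.5 CPM against 0). *VEGFA* was at 18.4 and 21 CPM in HCT116 and 19.3 and 16.2 CPM in NCI-H716 and was not called. With counts rescaled to gene lengths it was called higher in NCI-H716, with a log2 difference of -2.26 (edgeR adjusted p = 0.000718), and with limma on log2(TPM + 0.1) one of -2.18 (limma adjusted p = 0.016).

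Receptor tyrosine kinases were split, with 5 of 23 tested members higher in HCT116 and 9 in NCI-H716 (5 and 7 of 21 without overlap or copies). Among the FGF receptors, the targets for which the study screened compounds, *FGFR1* was at 20.6 and 17.3 CPM in HCT116 and 1.19 and 0.623 CPM in NCI-H716, a log2 difference of 4.33 ± 0.48 (edgeR adjusted p = 6e-06) that was 1.53, under the threshold, with limma on log2(TPM + 1). *FGFR4* was at 6.91 and 9.05 CPM against 2.2 and 2.91 CPM, and its log2 difference of 1.65 ± 0.48 did not reach the threshold. *FGFR3* was at 4.08 and 2.94 CPM in HCT116 and 2.03 and 3.74 CPM in NCI-H716, so the libraries overlapped. *FGFR2* is not in the HCT116 table used here. In NCI-H716 it stood at 88.1 and 91.7 TPM in the deposited RSEM estimates.

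*EGFR*, the receptor of the ligands above, was present in both lines, at 45.5 and 36 CPM in HCT116 and 97.8 and 104 CPM in NCI-H716, with a log2 difference of -1.31 ± 0.20. *MET*, the receptor of hepatocyte growth factor, was at 356 and 324 CPM against 242 and 270 CPM (log2 difference of 0.41 ± 0.14). Of the receptors higher in NCI-H716, *ERBB4*, a neuregulin receptor, was at 135 and 149 CPM and had 2 and 0 counts in HCT116, a ratio of 1768 with a counting interval of 489 to 14610. *EPHA4* was at 132 and 128 CPM against 4.16 and 2.04 CPM, *ROR1* at 69.6 and 57.6 CPM against 8.24 and 5.95 CPM, and *EPHA3* at 19.7 and 27 CPM against 0. Of those higher in HCT116, *EPHA2* was at 35.6 and 27.8 CPM against 0.847 and 0 CPM and *MST1R*, the receptor of macrophage-stimulating protein, at 11.6 and 11.7 CPM against 0.

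**Figure D4:**
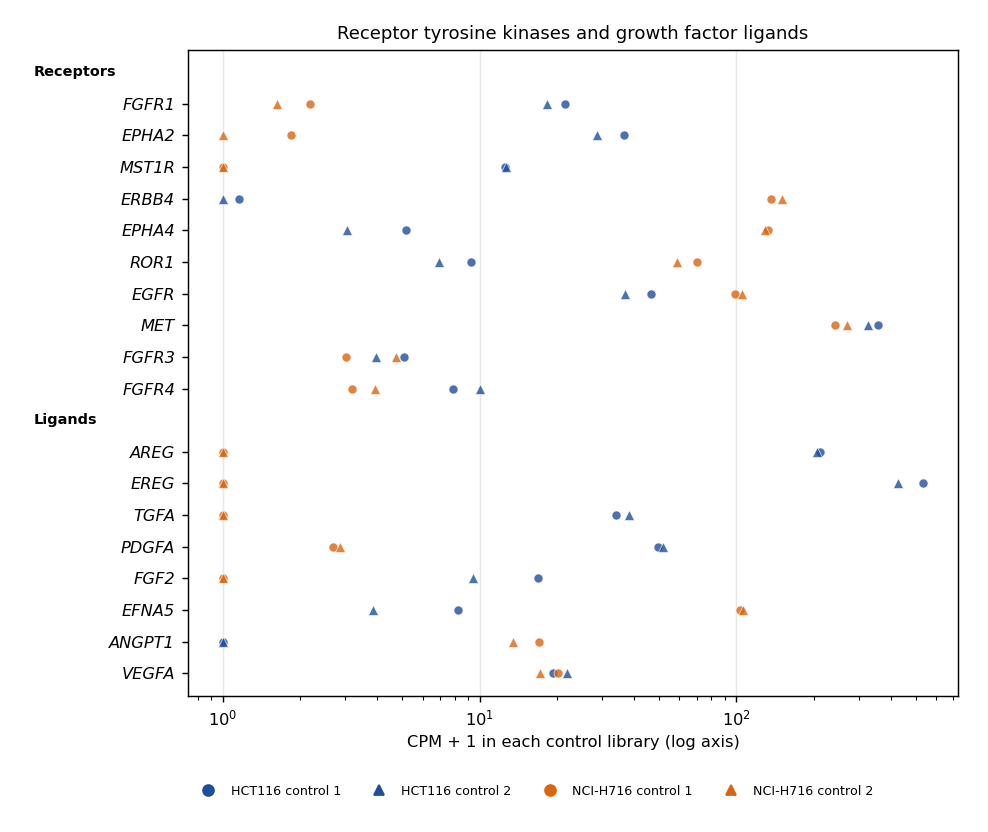
CPM + 1 on a log axis of receptor tyrosine kinases and growth factor ligands in each control library, HCT116 in blue and NCI-H716 in orange, with circles for replicate 1 and triangles for replicate 2. *AREG*, *EREG* and *TGFA* have no count in NCI-H716, while *EGFR* is at 97.8 and 104 CPM there; the points of *FGFR3* overlap between the lines.

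Cytokine and death receptors were called higher in HCT116 in 12 of 25 tested members and in NCI-H716 in 3 (11 and 3 of 21 without overlap or copies). *IFNGR1*, the ligand-binding chain of the interferon-γ receptor, was at 281 and 319 CPM in HCT116 and 70.8 and 61.9 CPM in NCI-H716, a call that was lost with housekeeping scaling, and *OSMR*, the oncostatin M receptor, at 40.9 and 34.6 CPM against 0 (at least 66.7-fold). *TNFRSF10A*, a receptor of the death ligand TRAIL, was at 56.4 and 49 CPM against 6.61 and 6.65 CPM. *IL17RB* was at 62.7 and 69.6 CPM against 0 and 0.208 CPM. In the other direction *TNFRSF11B*, osteoprotegerin, was at 102 and 60.7 CPM in NCI-H716 and at 0 in HCT116.

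G protein-coupled receptors were called in both directions, 8 of 20 tested members higher in HCT116 and 6 in NCI-H716 (7 and 5 of 17 without overlap or copies). *ADGRF1*, an adhesion receptor, was at 366 and 385 CPM in HCT116 and at 0 in NCI-H716 (at least 663-fold), and *LPAR3*, a receptor of lysophosphatidic acid, at 34 and 38.6 CPM against 0. *F2R*, the thrombin receptor, was at 26.5 and 21.9 CPM against 0. *CHRM3*, the muscarinic receptor M3 of secretory cells, was at 103 and 117 CPM in NCI-H716 and 0 and 0.163 CPM in HCT116. *GPBAR1*, the bile acid receptor of L cells, was low in NCI-H716 at 5.08 and 3.53 CPM and at 0 in HCT116. Receptors of the TGF-β, WNT and Notch pathways were higher in HCT116 in 4 and in NCI-H716 in 5 of 17 tested members (4 and 4 of 15 without overlap or copies). The shares over all tested genes were 15.2% and 26.5% (13.8% and 18.1% without overlap or copies). Over all tested members, the NCI-H716 counts of both receptor groups lay near their share, so that direction did not stand apart there. *FZD6*, a WNT receptor, was at 107 and 103 CPM in HCT116 against 13.6 and 8.11 CPM, and *FRZB*, a secreted WNT antagonist, at 0.157 and 0.652 CPM against 210 and 146 CPM in NCI-H716.

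Of 56 tested genes of lipid metabolism, 4 were higher in HCT116 and 18 in NCI-H716 (2 and 13 of 44 without overlap or copies). *CD36*, a fatty acid transporter, was at 274 and 295 CPM in NCI-H716 against 0.471 and 0.652 CPM, and *HPGD*, which inactivates prostaglandins, at 255 and 245 CPM against 0.942 and 2.28 CPM. *SQLE*, squalene epoxidase of the cholesterol pathway, was at 2735 and 2892 CPM in NCI-H716 and 154 and 163 CPM in HCT116, a log2 difference of -4.15 ± 0.14. *MSMO1* of the same pathway (uncertain) went the other way, at 885 and 828 CPM in HCT116 against 67.6 and 44.9 CPM in NCI-H716. *ELOVL7*, a fatty acid elongase, was higher in HCT116, at 31.4 and 36.5 CPM against 0.847 and 0 CPM. *HADHB* and *ACADM* of mitochondrial fatty acid oxidation were within a factor of 4.

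In amino acid and one-carbon metabolism, 15 of 46 tested genes were higher in NCI-H716 and 2 in HCT116 (11 and 2 of 35 without overlap or copies). *PHGDH*, the first enzyme of serine synthesis, was at 272 and 291 CPM in NCI-H716 and 39 and 51.9 CPM in HCT116, *ASL*, argininosuccinate lyase of the urea cycle, at 138 and 136 CPM against 9.42 and 13.4 CPM, and *KYNU*, kynureninase, at 136 and 136 CPM against 0 and 0.652 CPM. *CPS1*, the first enzyme of the urea cycle, went the other way, at 27.9 and 17.4 CPM in HCT116 and 0 and 0.416 CPM in NCI-H716, and so did *SLC1A3*, a glutamate transporter, at 29.7 and 26.4 CPM against 0.169 and 0 CPM. *ODC1* and *DLD* were within the threshold. In glucose metabolism, 20 of 29 tested genes were not called, 2 were higher in HCT116 and 7 in NCI-H716 (2 and 4 of 20 without overlap or copies). The counts without overlap or copies lay near the shares over all such genes, 13.8% and 18.1%, so this list did not stand apart. *ENO1*, the glycolytic enolase, was at 3724 and 4818 CPM in HCT116 and 4383 and 3683 CPM in NCI-H716, with overlapping libraries. *TXNIP*, which restrains glucose uptake, was at 414 and 433 CPM in NCI-H716 and 0 and 0.326 CPM in HCT116, and *PDK4*, a kinase that shuts pyruvate dehydrogenase, at 18.5 and 24.7 CPM against 0.393 and 0.815 CPM.

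Of 47 tested genes of xenobiotic and retinoid metabolism, 7 were higher in HCT116 and 22 in NCI-H716 (6 and 8 of 24 without overlap or copies). The UGT2B and GSTA genes make up much of the difference between these counts, since their sequences are alike and they were set aside as uncertain. *CRABP2*, a carrier of retinoic acid, was at 130 and 174 CPM in HCT116 and 0.169 and 0.208 CPM in NCI-H716. *CYP1B1* was at 265 and 377 CPM in NCI-H716 against 5.5 and 2.77 CPM. S100 and annexin genes were higher in HCT116 in 8 and in NCI-H716 in 6 of 23 tested members (8 and 5 of 21 without overlap or copies). The NCI-H716 count of 6 lay near the share over all tested genes, 26.5%. *S100A6* was high in both lines, at 5291 and 5381 CPM in HCT116 and 4731 and 4130 CPM in NCI-H716, whereas *S100P* was at 220 and 181 CPM in NCI-H716 against 0.785 and 0.163 CPM, and *ANXA10* at 1385 and 1177 CPM against 16.2 and 23.1 CPM.

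For 5 shorter or less secure lists the counts depended on the genes kept. Of 13 tested HOX genes, 1 was higher in HCT116 and 7 in NCI-H716, but only 5 were free of overlap, of which 2, *HOXA3* and *HOXA5*, were higher in NCI-H716, and *HOXA5* was not called after lengths were rescaled. Of 27 tested antigen presentation genes, 6 were higher in HCT116 and 15 in NCI-H716. Without overlap or copies it was 1 and 2 of 8, after the HLA genes were set aside for their copies on alternate contigs. The counts without overlap or copies lay near the shares over all such genes, 13.8% and 18.1%, so this list did not stand apart there. Of 9 mismatch repair genes, 2 were called, *MSH3* and *MSH5*, both uncertain. Of 48 housekeeping genes, 3 were higher in HCT116 and 4 in NCI-H716, with a median log2 difference of 0.78. The 4 were *PSMA2*, *SDHA* and *CDC42*, which are uncertain, and *GUSB*, at 21.9 and 21.9 CPM in HCT116 against 205 and 189 CPM. Of 30 cytosolic ribosomal protein genes, none was higher in HCT116 and 4, all uncertain, were higher in NCI-H716.

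The defining markers of colorectal epithelium were partly present. In NCI-H716, *KRT8* and *KRT18*, the simple epithelial keratins, stood at 192 and 180 TPM and at 214 and 210 TPM in the RSEM estimates, *CDX2*, the intestinal identity factor, at 4.1 and 3.53 TPM, and *CDH1*, E-cadherin, at 0.09 and 0 TPM. *KRT20*, a keratin of differentiated gut epithelium, was at 0.04 and 0 TPM and *LGALS4*, an intestinal galectin, at 1.56 and 1.96 TPM. These genes are not in the HCT116 table used here. *VIL1* (villin, uncertain) and *GPA33* were at most 0.163 CPM in HCT116. Endocrine markers outside the joined table were also present in NCI-H716, with *CHGA* at 53.1 and 57.3 TPM, *CHGB* at 156 and 180 TPM and *SCG3* at 65.5 and 76.9 TPM. *SYP*, synaptophysin, stood at 5.34 and 8.61 TPM, and *INSM1*, an endocrine transcription factor, at 2.78 and 2.51 TPM.

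Markers of stromal and immune cells also differed between the lines, and their part in the other results was not tested. Of 6 tested stromal and endothelial markers, 5 were higher in NCI-H716 and *SPARC* was higher in HCT116, and the summed level of the 12 members in the table was 9.42 and 37.3 CPM in HCT116 and 818 and 838 CPM in NCI-H716. Most of the sum was *COL3A1*, a fibrillar collagen, at 545 and 567 CPM in NCI-H716, and *FAP*, a surface protease of activated fibroblasts, at 160 and 148 CPM, against at most 2 counts in an HCT116 library. *COL14A1*, a collagen outside the list, was at 4316 and 4166 CPM in NCI-H716. The endothelial marker *KDR* was at 0 in NCI-H716 and *PDGFRB* at 0 and 0.208 CPM. *LUM*, the matrix proteoglycan lumican, which is not in the HCT116 table used here, stood at 188 and 157 TPM in NCI-H716, and the endothelial marker *PECAM1* at 0.01 and 0.01 TPM. Among immune markers, 3 of 15 in the table were tested and higher in NCI-H716 (*CD14*, *CD52* and *KIT*), with summed levels of 2.28 and 1.96 CPM in HCT116 and 8.3 and 8.31 CPM in NCI-H716, and *PTPRC*, the pan-leukocyte marker, was at 0 in NCI-H716. The libraries were made from cultured cells of the named line, so these values are levels of genes and not shares of stromal or immune cells. A bulk library does not show which cells of a culture held the RNA, and this was not tested.

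By chromosome, the median log2 difference of protein-coding genes without overlap or copies ran from -0.60 on chromosome 7 (430 genes) to 0.63 on chromosome 8 (343 genes). On chromosome 7, 10% of these genes were called higher in HCT116 and 25.1% higher in NCI-H716, and on chromosome 8 the shares were 20.7% and 18.1%. Chromosome 3 had a median of 0.47 and chromosomes 1, 2 and 6 lay between -0.19 and -0.02. These medians describe these libraries and were not tested.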

How the data were processed

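RNA from 2 control libraries of each line was compared. The members and gene lists were chosen with earlier results of these data known. Per the study's methods, libraries were made by SMART-Seq2 and reads were aligned to GRCh38 with STAR and quantified with RSEM. The submitters' processing notes name Bowtie2 2.5.0, featureCounts and hg38. The authors deposited raw counts per gene for HCT116, in the layout of featureCounts, and RSEM estimates for NCI-H716. The expected counts the authors deposited for NCI-H716 were rounded to whole numbers, and the TPM values the authors deposited were used only for genes outside the HCT116 table. How reads shared between genes were counted is not given in the sources used here. Of the 28043 genes listed for HCT116, 28 had no match, and 4 broken lines were left out. Depths are given over the joined genes, and CPM and the fit used totals over the tested genes.

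Genes passing filterByExpr were tested in edgeR 4.0.16 (TMM, quasi-likelihood, Benjamini-Hochberg adjustment) between the 4 libraries, with a common biological coefficient of variation of 0.176. Exon overlap was computed from the exons of the HCT116 table, copies by matching 50-base exon windows to hg38, and gene types came from GENCODE v44. Log2 differences are HCT116 minus NCI-H716 with the standard error of the fit. A gene without counts in a line was given as at least N-fold higher against 3 counts per library. With 1 to 3 counts in a line it was given as a ratio with an exact (Clopper-Pearson) 95% interval, which covers counting error only. The interval takes each count as an independent event. Low HCT116 counts were mostly even (82.5% and 78.2%), and NCI-H716 counts were rounded estimates, so it may be too narrow. On simulated counts of these 7343 genes, 99.5% of 200 genes changed 8-fold were called, with 2 false calls. Unchanged genes had the same mean in both lines, and all genes had 1 fixed dispersion. The simulation held no difference in quantification, overlap or copies, so it cannot give the rate of false calls between these lines. Named were the 10 largest differences per direction with at least 10 CPM in the higher line, up to 6 called members per list and direction with the highest CPM, up to 3 uncalled members per list at 10 CPM or more in both lines, 5 receptors and the marker genes; others are said to have been singled out. A few of the genes picked in this way are left unreported. Alternatives were DESeq2 1.42.0, other scalings and filters, limma 3.58.1 on log2(TPM + 1) and log2(TPM + 0.1), length-rescaled counts, other fold thresholds, all 8 libraries, the Test libraries, a replicate block and leaving out each library. Added after the data were seen were the set without overlap or copies and crossed replicate numbers. The computations used R 4.3.3 and Python 3.11.15.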

Additional observations from a re-analysis of the deposited data

How the results depend on the processing

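The counts of 1114 genes higher in HCT116 and 1945 higher in NCI-H716 were outside 1.5 times under these settings: at least 10 counts in every library gave 286 and 559, protein-coding genes without shared exon bases 369 and 610, and the set without overlap or copies, chosen after the data were seen, 581 and 761, each over fewer genes; a log2 threshold of 1 gave 1823 higher in HCT116. Leaving out each library in turn gave 1015 to 1110 and 1616 to 1948. With the replicate block the counts were 1025 and 1814. The deviations of same-numbered libraries correlated at -0.124, and the crossed pairing gave 1057 and 1859; the labels do not say that a number pairs libraries across lines. Over 22 alternatives, 208 of 210 called named genes kept their direction where they could be tested, and 66 lost the call in at least 1. The signs that turned were *AKR1B10* (-0.39 in the Test libraries), *EIF3E* (-0.95 with rescaled lengths and -1.02 in both limma fits) and *VEGFA*, which was not called as reported (-2.26 with rescaled lengths and -2.18 with limma on log2(TPM + 0.1)). The cause was not tested. With 2 libraries per line and different quantification, only large differences can be read, and 3 counts in the shallower NCI-H716 libraries already make 0.508 and 0.623 CPM.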

Other observations

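Among protein-coding genes without overlap or copies, 37 had at most 3 counts over both HCT116 control libraries and a mean of at least 100 CPM in NCI-H716, and 11 had at most 3 counts in NCI-H716 and at least 100 CPM in HCT116. The 37 hold gut and endocrine genes such as *GCG*, *PCSK1* and *SPDEF*, but also genes of other kinds. Those given next were chosen after their values were seen. *ATP5IF1*, the inhibitor of the mitochondrial ATP synthase, had 0 and 2 counts in HCT116 and 10428 and 8350 in NCI-H716, and *ID3*, an inhibitor of basic helix-loop-helix factors, 0 and 2 against 17544 and 7914. In the HCT116 Test libraries *ATP5IF1* had 2 and 0 counts and *ID3* 0 and 0, so the low values were not limited to the control libraries. The reason was not tested.

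Among 1140 tested long noncoding RNAs, 11.8% were called higher in HCT116 and 47.1% higher in NCI-H716, with a median log2 difference of -1.70. Their overlap with other genes was not set apart, and these shares are given as values only.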
